A study of Homo sapiens with 51 samples.

Results

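The first hour of treatment was examined in 9 of the 51 libraries of a time course in H1 cells, an established line of human embryonic stem cells grown here on Matrigel. The 3 untreated libraries were from cells kept in mTeSR. For the 3 Activin+BMP4 1 h libraries the ligands were Activin at 100 ng/mL and BMP4 at 10 ng/mL. For the 3 BMP4 1 h libraries the ligand was BMP4 alone at 50 ng/mL. Both treated groups were moved to TeSR E5 supplemented with insulin at 3.2 µM, FGF2 at 20 ng/mL and the compound spelled LY29004 at 1 µM, which the labels do not give for the untreated cells. None of the libraries used here had the new medium without added ligand, so the effects of the ligands, the medium, the compound and the handling at 1 h cannot be told apart. The members were the genes that passed the same test in the same direction in both 1 h groups, 104 of the 19603 genes tested at a minimum change of 2-fold and 1207 with no minimum.

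BMP ligands act through receptor kinases that phosphorylate the BMP branch of the SMAD transcription factors, and Activin acts through the branch shared with NODAL. Each branch binds DNA with SMAD4, and the ID genes and the inhibitory SMADs are among the textbook early targets. Pluripotent cells also answer quickly to changes in insulin, FGF and nutrients, through kinases whose targets include immediate early genes, feedback inhibitors of ERK signalling and the FOXO factors.

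The library totals were 23440096 to 26875034 counts. The 8 stem cell markers listed summed to 9521 to 9966 CPM across these libraries, where CPM is the count of a gene scaled to the size of its library, with 0 of the 8 at 0. Markers of other cells summed to 1.89 to 3.22 CPM for 6 endoderm, 187 to 247 CPM for 6 mesoderm, 453 to 502 CPM for 6 neural, 6.47 to 10.4 CPM for 7 trophoblast and amnion and 474 to 532 CPM for 6 feeder fibroblast genes. The mesoderm sum was mostly KDR (181 to 238 CPM), with TBXT, MESP1 and HAND1 at 0.348 CPM or less. NES (373 to 430 CPM) and OTX2 (65.2 to 84.0 CPM) made up most of the neural sum. COL1A1, COL1A2 and THY1 made up most of the feeder sum, with COL3A1, DCN and LUM at 0.126 CPM or less. Of all markers listed, CDX2 was at 0 in the untreated group, MESP1 in the BMP4 group, LUM in the Activin+BMP4 group and DCN in both treated groups. POU5F1, the central pluripotency factor, differed from untreated by -0.03 ± 0.05 (log2 fold change ± SE, the SE derived from the test statistic) in each treated group. The labels describe triplicates without naming separate cultures, so the variation among replicates behind each p-value may be technical. All 51 libraries were fitted together, so each p-value and SE also draws on the spread among replicates at later times. They do not reflect the untreated and 1 h libraries alone. The 13 protein-coding mitochondrial genes held 1.89 to 2.29% of counts in the untreated, 2.18 to 2.78% in the Activin+BMP4 and 2.71 to 3.12% in the BMP4 libraries. Their median log2 fold change was 0.20 with Activin+BMP4 and 0.50 with BMP4, and none of the 13 passed in both groups.

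Among the 104 genes, 98 were higher and 6 lower. In the comparison with untreated cells, Activin+BMP4 gave 149 genes higher (0.76% of those tested) and 21 lower (0.107%), and BMP4 gave 215 higher (1.1%) and 23 lower (0.117%). The 98 genes higher in both made up 0.5% of those tested, 65.8% of the 149 higher with Activin+BMP4 and 45.6% of the 215 higher with BMP4, and the 6 lower genes made up 0.0306%. The number called in opposite directions was 0. For the mean of both groups, 209 genes were higher (1.07%) and 23 lower (0.117%). With no minimum change, Activin+BMP4 gave 569 higher (2.9%) and 1035 lower (5.28%), and BMP4 gave 817 higher (4.17%) and 1201 lower (6.13%). Both comparisons use the same 3 untreated libraries, so likeness between them is partly built in. A call here means a Benjamini-Hochberg adjusted p under 0.05 in edgeR's quasi-likelihood test and a change of at least 2-fold. Without BMP4 1 h replicate 1, 128 genes were higher and 11 lower with BMP4, and without untreated replicate 2 or 3 the lower genes numbered 14 or 15. Without Activin+BMP4 1 h replicate 1, 13 genes were lower with Activin+BMP4, without untreated replicate 2 the mean of both groups gave 12 lower, and without untreated replicate 3 the shared lower genes numbered 3. In bulk RNA, fewer cells of a type and less RNA per cell cannot be told apart.

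RefSeq promoter windows (GRCh38.p14, 250 bases before to 50 after the gene start) were matched by symbol for 49 of the 98 higher genes, 4 of the 6 lower ones and 13137 of the genes tested. To show the sequence beside the genes whose values follow, 4 windows are shown, each 5′ to 3′ with a short motif of a factor tied to that gene or its pathway in capitals, matched on either strand.

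TXNIP, chr1:145996530-145996829, minus strand: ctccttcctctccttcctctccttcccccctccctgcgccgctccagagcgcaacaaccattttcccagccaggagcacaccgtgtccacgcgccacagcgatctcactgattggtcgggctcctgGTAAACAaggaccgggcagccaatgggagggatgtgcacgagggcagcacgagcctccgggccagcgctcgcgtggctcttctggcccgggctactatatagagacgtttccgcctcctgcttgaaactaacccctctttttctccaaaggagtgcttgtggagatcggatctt
GADD45B, chr19:2475877-2476176, plus strand: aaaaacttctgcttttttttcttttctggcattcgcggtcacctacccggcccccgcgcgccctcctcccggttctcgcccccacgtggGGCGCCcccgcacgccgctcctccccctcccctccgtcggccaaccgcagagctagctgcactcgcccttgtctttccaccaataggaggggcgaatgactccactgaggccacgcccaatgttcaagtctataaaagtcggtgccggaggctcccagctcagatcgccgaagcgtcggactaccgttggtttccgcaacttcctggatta
HES1, chr3:194135898-194136197, plus strand: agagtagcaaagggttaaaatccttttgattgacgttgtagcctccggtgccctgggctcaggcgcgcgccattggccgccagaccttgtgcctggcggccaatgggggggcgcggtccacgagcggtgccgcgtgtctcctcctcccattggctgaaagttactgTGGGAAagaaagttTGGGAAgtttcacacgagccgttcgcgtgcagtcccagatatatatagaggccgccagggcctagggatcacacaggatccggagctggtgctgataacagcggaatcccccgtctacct
MT1X, chr16:56682220-56682519, plus strand: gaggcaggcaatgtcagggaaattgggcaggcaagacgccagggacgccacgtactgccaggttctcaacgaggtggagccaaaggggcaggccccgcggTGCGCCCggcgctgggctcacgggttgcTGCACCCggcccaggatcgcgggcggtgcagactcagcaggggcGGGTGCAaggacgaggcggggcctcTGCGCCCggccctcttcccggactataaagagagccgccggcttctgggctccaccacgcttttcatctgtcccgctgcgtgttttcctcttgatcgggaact

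The capitals in TXNIP are the FOXO motif GTAAACA, at -124 from the gene start. It was present in 2 of the 49 windows (4.08%) and 2.41% of all tested genes' windows. In GADD45B the capitals are GGCGCC, a motif bound by BMP SMADs, at -161, present in 24.5% of the 49 and 29.4% of all. In HES1 they are TGGGAA, the core bound by the Notch effector CSL, at -84 and -70, and 2 or more matches were found in 6.12% of the 49 and 3.24% of all. In MT1X they are TGCNCNC, a loose pattern that includes the metal response element core, with 4 matches at -150, -122, -78 and -53. A single match of that pattern is common (69.4% of the 49, 63.4% of all), and 4 or more were found in 4.08% and 3.46%. The pattern also takes sequences outside that core, so these are not shares of the core itself. The last 2 motifs were chosen after the values were seen. The cyclic AMP response element TGACGTCA was in 6.12% of the 49 windows and 3.09% of all, the AP-1 motif TGANTCA in 4.08% and 4.72%, the E-box CACGTG in 12.2% and 9.60%, the heat shock motif GAANNTTC in 8.16% and 4.95%, and the EGR motif GCGTGGGCG and the CArG box of serum response factor in 0% of the 49 and 1.25% and 1.12% of all. The ID1 window held neither GGCGCC nor the SMAD pair GTCTAGAC, and sequence outside the window was not searched. ID3, ID4, GATA2 and MSX2 held neither as well, while BAMBI held 3 GGCGCC matches, GATA3 held 1 and SMAD6 held 1 GTCTAGAC.

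The gene with the clearest rise was ARRDC3, which encodes an alpha-arrestin, an adaptor that helps remove receptors and transporters from the cell surface. Its level was 7.83, 10.0 and 9.18 CPM in the untreated libraries, 71.1, 68.1 and 75.7 CPM with Activin+BMP4, and 70.6, 70.9 and 76.3 CPM with BMP4. The groups at 1 h were both far above the untreated libraries and overlapped each other. The change was 7.95-fold with Activin+BMP4 (log2 fold change 2.99 ± 0.08 SE, adjusted p = 4.90e-29 by edgeR) and 8.05-fold with BMP4 (3.01 ± 0.08, adjusted p = 3.88e-29). The 1 h groups differed by 0.02 ± 0.06. The gene lies on chromosome 5 from 91368724 to 91383359 on the minus strand (GRCh38, GENCODE 29), and its exons overlap those of ARRDC3-AS1 on the other strand. Whether the counting used strand is not given in the sources used here, so reads of these overlapping genes may not be separated.

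TXNIP, the other member of this family that was called, encodes a thioredoxin-binding protein that limits glucose uptake. It was at 9.72, 11.8 and 9.81 CPM untreated, 28.7, 27.4 and 28.1 CPM with Activin+BMP4, and 33.7, 29 and 32.3 CPM with BMP4. All 6 libraries at 1 h were above all 3 untreated ones. The log2 fold changes were 1.43 ± 0.36 (adjusted p = 0.00825, edgeR) and 1.60 ± 0.36 (adjusted p = 0.00223). Of the 5 alpha-arrestin genes tested, these 2 rose at least 2-fold in both groups, against 0.5% of all genes tested. The family was not among the planned lists and was added after values were seen, so nothing is read from that contrast. ARRDC1, ARRDC2 and ARRDC4 had log2 fold changes between -0.18 and 0.21 and did not pass in either group.

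**Figure D1:**
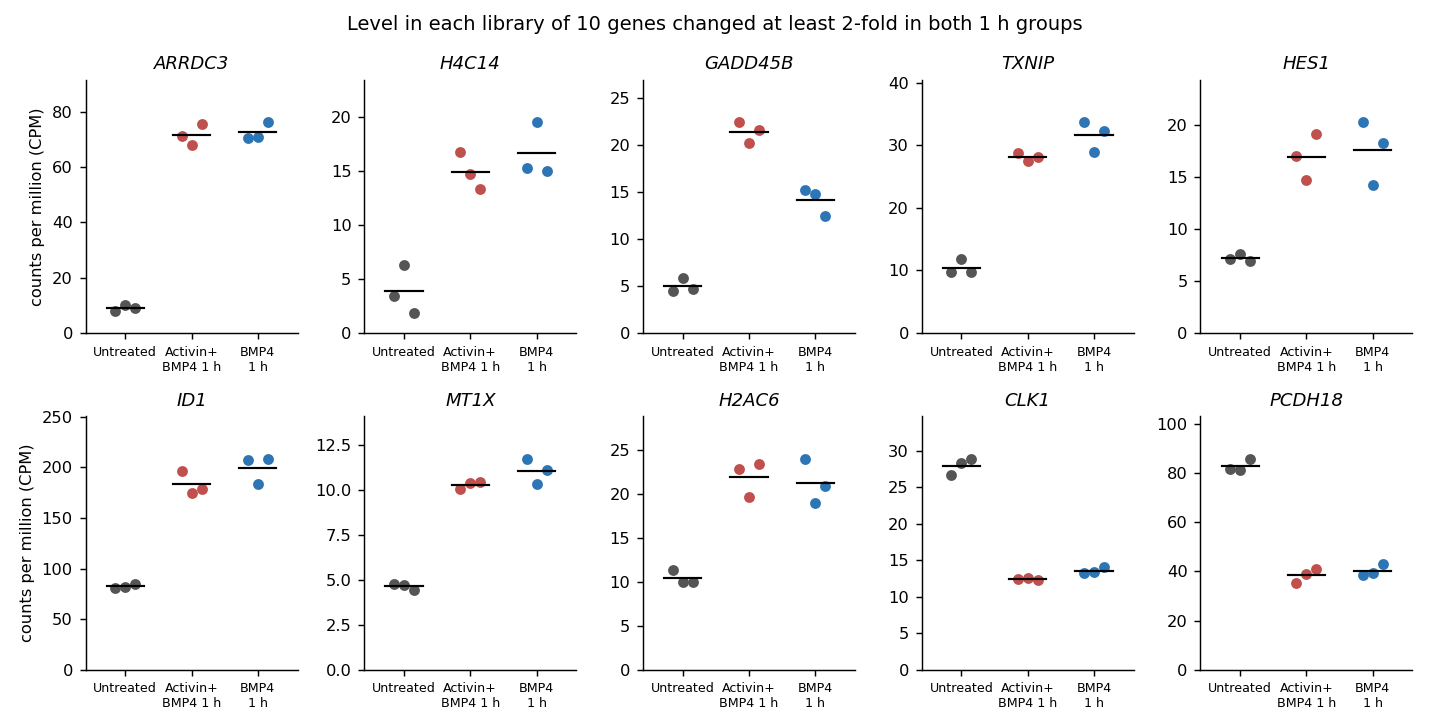
Level in CPM in each of the 9 libraries for the 8 higher and 2 lower genes that had at least 10 CPM and no overlap between the 6 libraries at 1 h and the 3 untreated ones; points are libraries and bars are group means. ARRDC3 went from 9.01 CPM untreated to 71.6 and 72.6 CPM, and GADD45B was higher with Activin+BMP4 (21.4 CPM) than with BMP4 (14.2 CPM).

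Of the 19 BMP target genes tested, 4 rose at least 2-fold in both groups (ID1, GATA2, NOG and MSX2), 10 rose when no minimum change was set, and 0 fell. Over all genes tested, 1.93% rose and 4.23% fell in both groups with no minimum change. The median log2 fold change of the list was 0.73 with Activin+BMP4 and 0.77 with BMP4, against 0.00 over all genes in each. ID1 on chromosome 20 (31605283 to 31606515, plus strand), which blocks DNA binding by basic helix-loop-helix factors, was at 80.6, 81.5 and 84.9 CPM untreated, 196, 175 and 179 CPM with Activin+BMP4, and 207, 184 and 209 CPM with BMP4. The lowest treated library was above 2 times the highest untreated one with both ligands. Its log2 fold changes were 1.15 ± 0.08 (adjusted p = 3.03e-14, edgeR) and 1.28 ± 0.08 (adjusted p = 1.74e-15). The other ID genes rose less than 2-fold. ID4 went from 11.5 to 19.1 and 22.8 CPM, ID3 from 68.7 to 105 and 117 CPM, and ID2 from 22.3 to 33.3 and 36.4 CPM in the untreated, Activin+BMP4 and BMP4 means.

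The remaining called BMP targets were scarce before treatment. GATA2 on chromosome 3 (128479427 to 128493185, minus strand), a zinc finger transcription factor of trophoblast and blood lineages, was at 0.281, 0.684 and 0.335 CPM untreated, 4.62, 3.56 and 4.55 CPM with Activin+BMP4, and 6.45, 4.59 and 5.90 CPM with BMP4. Its groups at 1 h were 9.67-fold and 12.9-fold higher (log2 fold change 3.27 ± 0.32 and 3.69 ± 0.30, adjusted p = 4.08e-10 and 5.99e-12 by edgeR). NOG, the secreted BMP antagonist noggin, had 4 counts over the 3 untreated libraries, 43 with Activin+BMP4 and 45 with BMP4. MSX2, a homeobox factor, went from 0.338 to 0.977 and 1.36 CPM, but its call in both groups was lost without Activin+BMP4 1 h replicate 3, untreated replicate 2 or untreated replicate 3. GATA3, a related zinc finger factor, rose with BMP4 (0.559 to 2.26 CPM, adjusted p = 3.19e-04, edgeR), and with Activin+BMP4 it was at 1.38 CPM with an adjusted p of 0.0535. CDX2, a homeobox factor of trophoblast and hindgut, had 0 counts untreated and 18 in each treated group, at least 5.97-fold and 6.13-fold higher against a floor of 3 counts over the untreated group. GATA3 and CDX2 were chosen after their values were seen.

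Of the other BMP targets listed, SMAD7, BAMBI and HEY1 rose with the ID genes when no minimum change was set. SMAD7, an inhibitory SMAD, went from 14.4 ± 0.387 CPM (SD, n = 3) to 33.0 ± 1.33 and 26.8 ± 2.00 CPM. Its change passed 2-fold with Activin+BMP4 (log2 fold change 1.19 ± 0.09) and not with BMP4 (0.90 ± 0.09), and the difference between the treated groups was -0.30 with an adjusted p of 0.875 in edgeR. BAMBI, a decoy receptor, went from 17.9 to 28.3 and 29.5 CPM, and HEY1, a repressor that Notch also controls, from 1.91 to 3.86 and 3.25 CPM. SMAD6, the inhibitory SMAD more tied to BMP, did not pass in either group (0.20 ± 0.17 and 0.33 ± 0.16). With no minimum change, 0 of the 22 receptors, SMADs and co-regulators tested rose and 6 fell, against 1.93% and 4.23% of all genes. A count of 0 higher is near that share. Of the 829 genes lower in both groups by this rule, 752 reached 10 CPM, against 9941 of the 19603 tested. The 4.23% also counts scarce genes, so it is a low background for lists of abundant genes. The 6 that fell were TGFBR2 (11.1 to 6.90 and 7.45 CPM), TGIF1 (157 to 118 and 116 CPM), SKIL (353 to 287 and 278 CPM), ACVR2A (23.6 to 18.5 and 18.7 CPM), SMAD4 (123 to 108 and 108 CPM) and SMURF2 (47.3 to 40.7 and 41.1 CPM). BMP2, a ligand of the same family, fell from 10.7 to 5.31 and 5.85 CPM.

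**Figure D2:**
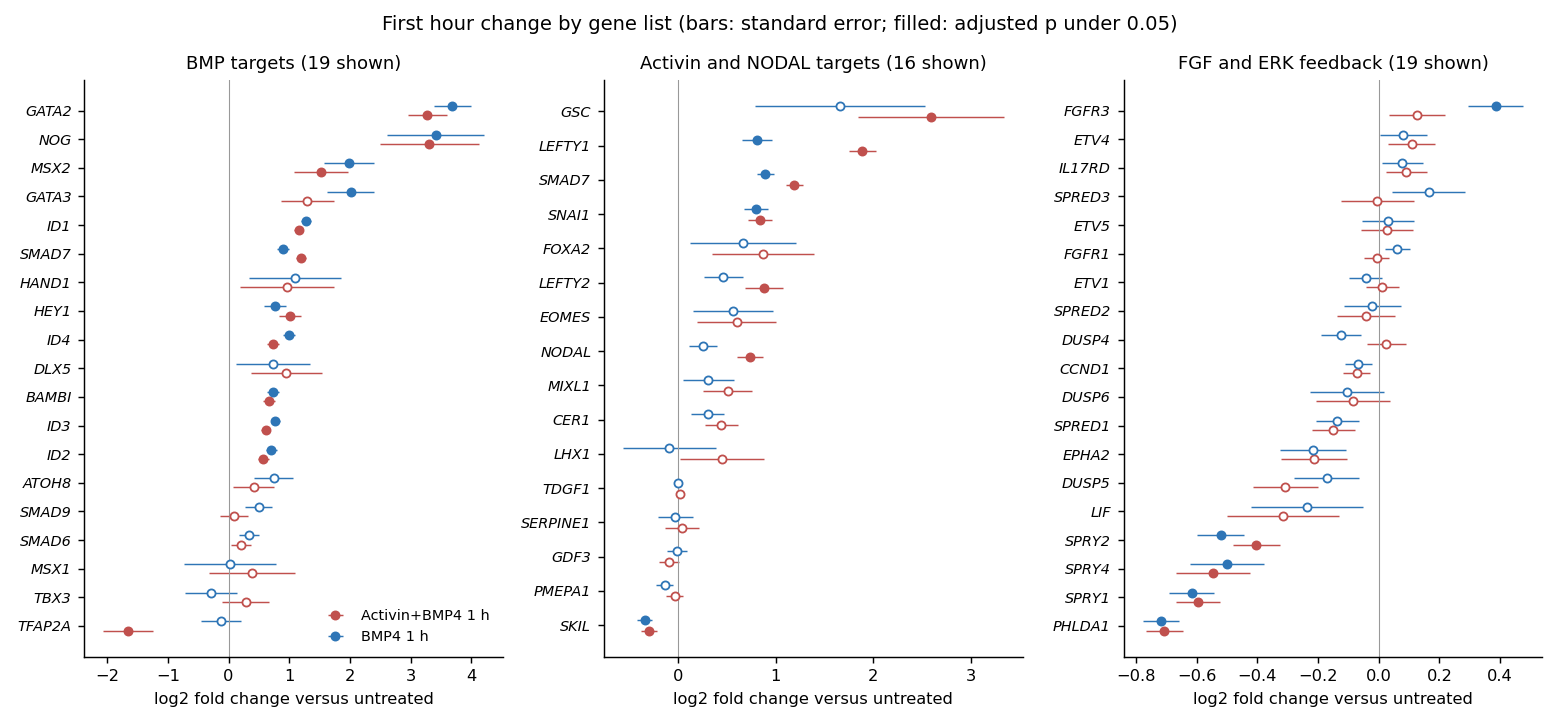
Log2 fold change versus untreated for the genes of 3 lists (1 Activin and NODAL target is not shown), with Activin+BMP4 in red and BMP4 in blue; bars are standard errors and filled points have an adjusted p under 0.05. Of the 19 BMP targets 10 rose in both groups, while PHLDA1, SPRY1, SPRY4 and SPRY2 fell in both.

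Of the genes tied to Activin and NODAL, LEFTY1 on chromosome 1 (225886282 to 225911382, minus strand), a secreted NODAL antagonist, rose in both groups, from 8.20, 7.48 and 6.58 CPM to 29.6, 27.8 and 25.4 CPM with Activin+BMP4 and to 13.5, 13.3 and 12.2 CPM with BMP4. It passed 2-fold with Activin+BMP4 alone, and it was the only gene called between the 1 h groups (0.0051% of those tested). SNAI1, a repressor of E-cadherin, rose from 4.0 to 7.14 and 6.95 CPM. At 2-fold, 1 of the 17 Activin and NODAL targets rose in both groups (0 to 1 over the alternative fits), against 0.5% of all genes. With no minimum change, 4 of the 17 rose in both groups, LEFTY1, SMAD7 and SNAI1 among them, and 1, SKIL, fell. The shares over all genes tested were 1.93% higher and 4.23% lower, so the 1 that fell is near the background. NODAL itself went from 10.3 CPM untreated to 17.2 CPM with Activin+BMP4 (adjusted p = 1.74e-04, edgeR), and BMP4 left it at 12.3 CPM (adjusted p = 0.292). LEFTY2, the neighbouring antagonist, had log2 fold changes of 0.88 with Activin+BMP4 (adjusted p = 0.00176, edgeR) and 0.47 with BMP4 (adjusted p = 0.153). FZD10, a WNT receptor chosen after its values were seen, rose from 0.545 to 3.14 and 1.77 CPM.

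GADD45B, a stress-induced protein that binds a kinase of the p38 pathway, was at 4.46, 5.87 and 4.65 CPM untreated, 22.5, 20.3 and 21.6 CPM with Activin+BMP4, and 15.2, 14.8 and 12.5 CPM with BMP4. The 3 groups did not overlap. Its log2 fold changes were 2.10 ± 0.12 (adjusted p = 8.69e-17, edgeR) and 1.5 ± 0.12 (adjusted p = 5.60e-12). The treated groups differed by -0.60 ± 0.10 (adjusted p = 0.0118, edgeR), under the 2-fold minimum. Its relative GADD45G, chosen after its values were seen, rose from 2.32 to 6.99 and 6.50 CPM. GADD45B was the only 1 of the 34 immediate early genes tested that rose at least 2-fold in both groups, against 0.5% of all genes. With no minimum, 4 rose (GADD45B, DUSP1, CCN2 and PPP1R15A) and 2 fell, ARC among them. That rule gave 1.93% of all genes higher and 4.23% lower, so 2 lower of 34 is near the background. FOS was at 8.84, 10.4 and 12.2 CPM and rose with BMP4 (adjusted p = 0.00109, edgeR), with an adjusted p of 0.148 for Activin+BMP4. EGR1 (6.80, 5.40 and 7.78 CPM) and JUN (23.2, 23.5 and 21.8 CPM) passed in neither group. The direct test between the treated groups gave FOS, NODAL, LEFTY2, GATA3 and NANOG no adjusted p under 0.05, so a pass in 1 group is not shown to differ from the other.

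Feedback genes of FGF and ERK signalling fell or did not pass, with 0 of 19 higher and 4 lower in both groups. By the same rule, with no minimum change, 1.93% of all genes tested rose and 4.23% fell, so 0 higher of 19 is near that share. The 4.23% also counts scarce genes, so it is a low background for lists of abundant genes. PHLDA1, a pleckstrin-domain protein, went from 80.5 to 49.3 and 49.0 CPM (log2 fold change -0.71 ± 0.06 and -0.72 ± 0.06). The Sprouty inhibitors fell as well, SPRY4 from 142 to 97.1 and 100 CPM, SPRY1 from 25.1 to 16.6 and 16.4 CPM, and SPRY2 from 34.4 to 26.0 and 24.0 CPM. DUSP6, the ERK phosphatase, was at 108, 101 and 100 CPM and did not pass (-0.09 ± 0.12 and -0.11 ± 0.12).

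HES1, a basic helix-loop-helix repressor and Notch target whose window held the 2 TGGGAA matches, was at 7.11, 7.64 and 6.96 CPM untreated, 17.1, 14.7 and 19.1 CPM with Activin+BMP4, and 20.3, 14.2 and 18.3 CPM with BMP4. The treated groups lay in the same range and both were above the untreated libraries. Its log2 fold changes were 1.23 ± 0.11 (adjusted p = 8.02e-11, edgeR) and 1.28 ± 0.11 (adjusted p = 2.32e-11). Of 14 Notch genes tested, HES1 and HEY1 rose, and JAG1, a ligand, fell from 50.7 to 41.2 and 41.0 CPM. With no minimum change, 1.93% of all genes tested rose and 4.23% fell, so 1 lower gene of 14 is near that share.

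With no minimum change, 2 of 28 genes linked to FOXO factors rose (TXNIP and BCL2L11) and 5 fell. CDKN1B, a cell cycle inhibitor, went from 33.0 to 22.9 and 23.2 CPM, SESN3 from 73.6 to 51.4 and 49.6 CPM, and KLHL24 from 28.1 to 18.7 and 20.1 CPM, and CITED2 and RICTOR fell as well. IRS2 (-0.13 ± 0.08 and -0.06 ± 0.08) and PIK3IP1 (0.67 ± 0.23 and 0.60 ± 0.24) did not pass. Of 12 heat shock genes 4 fell, HSPA1A (71.2 to 48.3 and 50.9 CPM), HSPA1B (85.7 to 57.5 and 55.4 CPM), DNAJB1 and HSPA8, and 0 rose. HSPA1A and HSPA1B are near-identical copies, and reads may be divided between them. Of 18 cholesterol synthesis genes 1, MSMO1, fell, and of 17 hypoxia and glycolysis genes and 15 clock and glucocorticoid-linked genes 0 passed in both groups. With the same rule, 3 of 16 WNT targets fell, AXIN2 and ZNRF3 among them, and 1 of 14 primitive streak genes, FGF4, rose. Of 13 YAP targets, CCN2, AMOTL2 and ARHGEF17 rose and LATS2 and F3 fell. In the amino acid and unfolded protein response list 1 of 14 genes fell (ATF4), in the NF-kB list 1 of 10 (NFKBIZ), and in the p53 list of 16 PMAIP1 rose and CDKN1A fell. Over all genes tested, 1.93% rose and 4.23% fell by this rule, so 1 gene in a list of this size is near the background. The 4.23% also counts scarce genes, so it is a low background for lists of abundant genes. Over the alternative fits the WNT count ranged from 0 to 3, and the single genes of the primitive streak, p53 and unfolded protein response lists came to 0 in at least 1 fit. SMAD7, HEY1, SKIL and CCN2 each stand in more than 1 of these lists.

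Metallothioneins, small proteins that bind zinc and copper, were among the genes that rose. MT1X, whose window held the 4 TGCNCNC matches, was at 4.78, 4.71 and 4.44 CPM untreated, 10.1, 10.4 and 10.5 CPM with Activin+BMP4, and 11.8, 10.3 and 11.1 CPM with BMP4. The treated groups overlapped each other and were above 2 times the untreated mean in all 6 libraries. Its log2 fold changes were 1.15 ± 0.11 (adjusted p = 1.44e-10, edgeR) and 1.25 ± 0.11 (adjusted p = 1.22e-11). MT1G (0.788 to 2.33 and 2.64 CPM) and MT1E (0.640 to 1.72 and 1.88 CPM) were called too, so 3 of the 7 metallothionein genes tested rose by 2-fold, against 0.5% of all genes tested, while MT2A was at 6.86, 7.82 and 8.59 CPM. These genes are close copies of each other, and how reads were divided between them is not known. SLC30A1, which exports zinc from cells, rose from 37.2 to 70.2 and 63.7 CPM. MT1X was named by rank and the other genes of this group after their values were seen. The family was added in the same way, so nothing is read from its share against all genes.

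Of 49 replication-dependent histone genes tested, 5 were called higher (0.5% of all genes tested), and 9 rose with no minimum change (1.93% of all). This family too was added after values were seen, so nothing is read from these shares. H2AC6 went from 10.4 ± 0.805 CPM (SD, n = 3) to 22.0 ± 2.01 and 21.3 ± 2.55 CPM, and its call in both groups was lost without BMP4 1 h replicate 1, untreated replicate 2 or untreated replicate 3. H4C14 was at 3.42, 6.32 and 1.84 CPM untreated, 16.8, 14.8 and 13.4 CPM with Activin+BMP4, and 15.3, 19.6 and 15.1 CPM with BMP4. H4C14 has a near-identical copy, H4C15, and H3C14 and H3C15 hold identical counts in all 51 libraries, so single histone values are uncertain. H3C14 and H3C15 are both among the 5 called, so the same signal is counted more than once. Transcripts of replication-dependent histone genes mostly lack a poly(A) tail. The labels give total RNA as the molecule and mRNA in the study's design, so the capture of such transcripts is not known.

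The 6 genes lower in both groups included CLK1 and PCDH18. CLK1 on chromosome 2 (200853009 to 200864744, minus strand), a kinase of splicing factors, was at 26.7, 28.3 and 28.9 CPM untreated, 12.5, 12.6 and 12.3 CPM with Activin+BMP4, and 13.3, 13.4 and 14.1 CPM with BMP4. All 6 treated libraries were below all 3 untreated ones. The log2 fold changes were -1.17 ± 0.10 (adjusted p = 2.43e-11, edgeR) and -1.04 ± 0.10 (adjusted p = 4.35e-10). PCDH18 on chromosome 4 (137518918 to 137532494, minus strand), a cell adhesion protein of the protocadherin family, was at 81.6, 81.3 and 85.8 CPM untreated, 35.4, 38.9 and 40.8 CPM with Activin+BMP4, and 38.5, 39.3 and 43.0 CPM with BMP4. Its log2 fold changes were -1.11 ± 0.10 and -1.04 ± 0.10. CDH9, a cadherin, fell from 2.09 to 0.640 and 0.870 CPM, a call lost without BMP4 1 h replicate 1 or 2 or any 1 untreated library. The other three were noncoding, among them LINC01355 (1.27 to 0.468 and 0.346 CPM). Just outside the threshold were KLHL8 (-0.95 and -0.96) and MYB (-1.10 and -0.93). Just inside it on the higher side were GTF2A1-AS1 (1.01 and 1.05) and PRR15-DT (1.01 and 1.28), and just outside it LASP1NB (1.00 and 1.10) and CCDC18-AS1 (0.99 and 1.03). PCDH18 and CLK1 were themselves the genes nearest the threshold on the lower side.

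With no minimum change, decreases outnumbered increases, 829 genes (4.23%) against 378 (1.93%). Decreases were small, with a median log2 fold change of -0.29 with Activin+BMP4 and -0.30 with BMP4. Of the 829 genes, 752 reached 10 CPM, against 9941 of the 19603 tested. Of the 23 pluripotency genes 3 fell in both groups, among them SOX2 from 319 to 248 and 254 CPM and FOXD3 from 21.6 to 15.2 and 16.6 CPM, and 1, ZSCAN10, rose from 150 to 173 and 179 CPM. NANOG fell with BMP4, from 187 to 163 CPM (adjusted p = 1.58e-04, edgeR), and did not pass with Activin+BMP4 (178 CPM, adjusted p = 0.289). Chosen after their values were seen, MYCN fell from 146 to 93.9 and 96.4 CPM, and ZFP36L1, which promotes decay of mRNAs with AU-rich elements, from 140 to 82.1 and 88.3 CPM. RHOB, a small GTPase, rose from 20.6 to 36.6 and 34.0 CPM. Of 540 genes of the ZNF family tested, 81 fell and 15 rose.

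**Figure D3:**
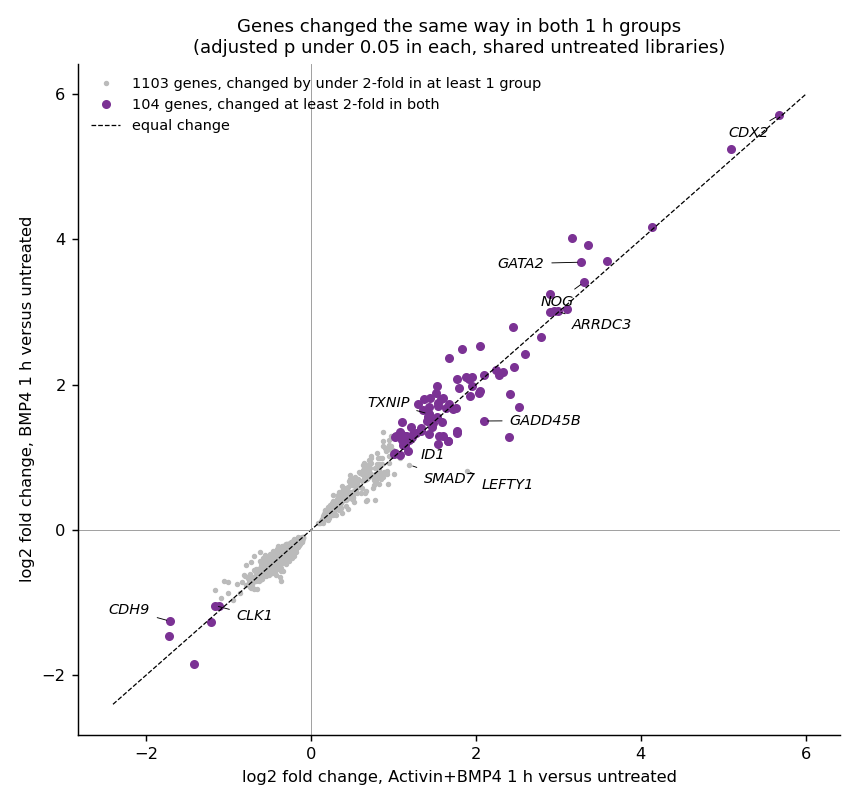
Log2 fold change with Activin+BMP4 (x axis) and BMP4 (y axis) versus untreated for the 1207 genes that passed in the same direction in both; purple points passed 2-fold in both. The 6 lower purple points lie between -1.85 and -1.04, LEFTY1 lies at 1.89 and 0.81, and the values at the top, such as CDX2, are fitted against 0 untreated counts and are not bounds; the axes share the untreated libraries.

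The median log2 fold change of the 98 increases was 1.56 with Activin+BMP4 and 1.66 with BMP4, or 1.55 and 1.63 with the 3 genes at 0 untreated counts set at their lower bound. Of the 98, 69 were larger with BMP4, as were 266 of the 378 genes higher at any size of change, so this is not particular to the 98. Genes annotated as lincRNA, a noncoding class, held 0.572 to 0.638% of untreated, 0.573 to 0.893% of Activin+BMP4 and 1.14 to 1.37% of BMP4 counts. The part of this difference in RNA composition in the count of 69 was not tested. At least 4-fold increases in both groups numbered 22 (0.112%), or 20 with those bounds, and at least 4-fold decreases 0 (0%). Most were scarce transcripts. The median untreated level was 0.401 CPM, 36 of the 98 stayed under 1 CPM in every group, and 9 reached 10 CPM. In 94 of the 98 and in all 6 lower genes, the 6 treated libraries did not overlap the 3 untreated ones, as did 7.57% (higher) and 10.4% (lower) of all genes tested. The members were chosen by a test on these same libraries, so nothing is read from this contrast.

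Of the genes called in 1 group only, 66 with Activin+BMP4 (0.337%) and 134 with BMP4 (0.684%), the fitted change had the same sign in the other group for 65 and 129. The direct edgeR test between the 1 h groups called 1 of the 66, LEFTY1, and 0 of the 134, and 21 and 32 of them had an unadjusted p under 0.05. Over all genes, 934 had an unadjusted p under 0.05 between the treated groups and DESeq2 called 6 genes higher with BMP4, against 0 in edgeR.

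Of the 98 higher genes, 33 were protein coding (33.7%, against 79.0% of the tested genes with an annotation). Another 22 were annotated as antisense and 16 as lincRNA, against 1241 and 972 of the 19477 tested genes with an annotation. Of the 98, 38.8% had a single exon, against 9.8% of the tested genes. At any size of change, 61.4% of the 378 higher genes and 97.6% of the 829 lower genes were protein coding, and 19.1% and 2.5% had a single exon. Of the 6 genes lower by 2-fold, 3 were protein coding. Among protein-coding genes alone, the median genomic span at any size of change was 19306 bp for the 231 higher and 43798 bp for the 809 lower genes, against 33460 bp for all tested, and it was 3282 bp for the 33 higher by 2-fold. NEAT1, a nuclear noncoding RNA, rose from 2.48 to 7.23 and 8.07 CPM, and MALAT1 from 228 to 318 and 361 CPM. SNHG3 (42.7 to 60.8 and 67.0 CPM) and SNHG4 (17.3 to 27.8 and 30.3 CPM), which host small nucleolar RNAs, rose too. These 4 were chosen after their values were seen. Of 26 SNHG genes tested, 6 rose and 2 fell with no minimum change, against 1.93% and 4.23% of all genes, and 0 were called at 2-fold. NEAT1 and MALAT1 together held 0.0223 to 0.0236% of untreated counts and 0.0291 to 0.0376% at 1 h. On chromosome 21, ENSG00000280614 and 2 further rows that hold the same counts as it, chosen after their values were seen, together held 0.211 to 0.280% of untreated, 0.171 to 0.5% of Activin+BMP4 and 0.722 to 0.977% of BMP4 counts. The part that RNA composition of the libraries plays in the noncoding increases was not tested. Exons of 56 of the 98 genes overlap another gene's (57.1%, against 49.2% of those tested), and such counts are uncertain without the strand setting.

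**Figure D4:**
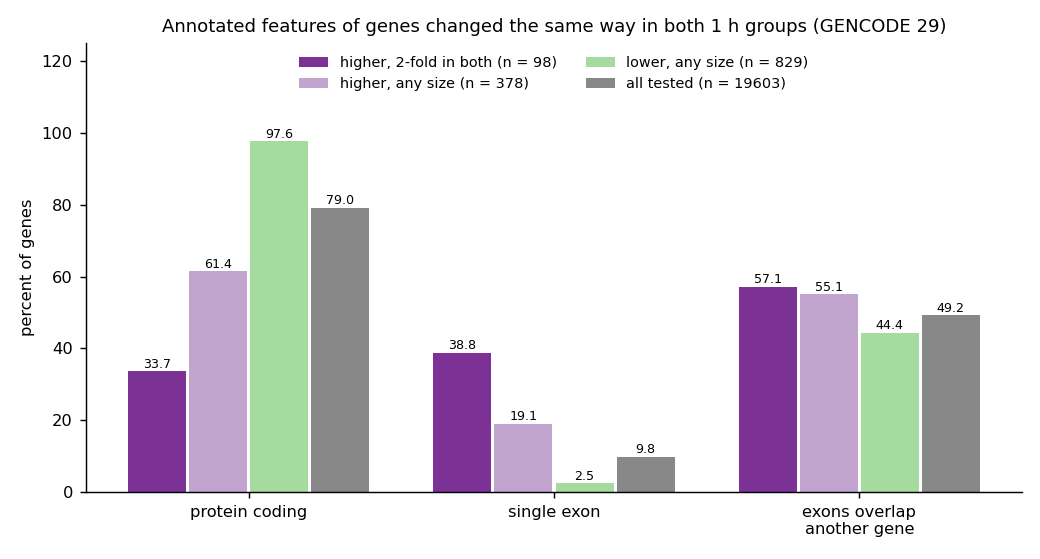
Percent of genes in 4 sets that are protein coding, have a single exon at most in any transcript, or have exons that overlap another gene, by GENCODE 29. At any size of change, 61.4% of higher and 97.6% of lower genes were protein coding, against 79.0% of all tested, and the share was 33.7% for genes higher by 2-fold.

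The later libraries showed how long the changes lasted. The members were chosen on their 1 h values, and all times share the untreated libraries, so the 1 h medians are not independent of the choice. The median difference in log2(CPM + 0.5) from untreated over the 98 genes went from 0.84 at 1 h to 0.55 at 6 h and 0.24 at 96 h in the Activin+BMP4 course, and from 0.94 to 0.57 and 0.33 in the BMP4 course. For the 33 protein-coding genes the Activin+BMP4 median was 1.01 at 1 h, 1.11 at 24 h and 0.16 at 96 h, and the BMP4 median was 1.11, 0.97 and 0.79. For the other 65 genes it was 0.80, 0.38 and 0.27 with Activin+BMP4, and 0.91, 0.42 and 0.19 with BMP4. The highest mean of the course was at 1 h for 54 of the 98 genes with Activin+BMP4 and 58 with BMP4. ARRDC3 went from 71.6 CPM at 1 h to 37.9 CPM at 6 h and 12.0 CPM at 48 h with Activin+BMP4, and from 72.6 to 39.8 and 13.6 CPM with BMP4. TXNIP was at 8.57 and 8.03 CPM at 6 h and 2.39 and 1.93 CPM at 48 h, below the untreated 10.5 CPM.

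Other members had higher means later than at 1 h, and no test was made at those times. MT1X reached 54.7 and 54.9 CPM at 6 h and was at 10.9 and 9.58 CPM at 24 h. ID1 reached 484 and 500 CPM at 6 h. In the Activin+BMP4 course GATA2 went from 14.1 CPM (6 h) to 0.498 CPM (96 h), and in the BMP4 course from 26.3 to 49.5 CPM. By 96 h NOG reached 3.81 CPM in the first and 38.7 CPM in the second, and MSX2 14.7 and 120 CPM. CLK1 was back at 30.8 and 26.9 CPM by 6 h, close to its untreated 28 CPM. PCDH18 was at 32.8 CPM at 48 h in the Activin+BMP4 course and at 153 CPM in the BMP4 course.

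**Figure D5:**
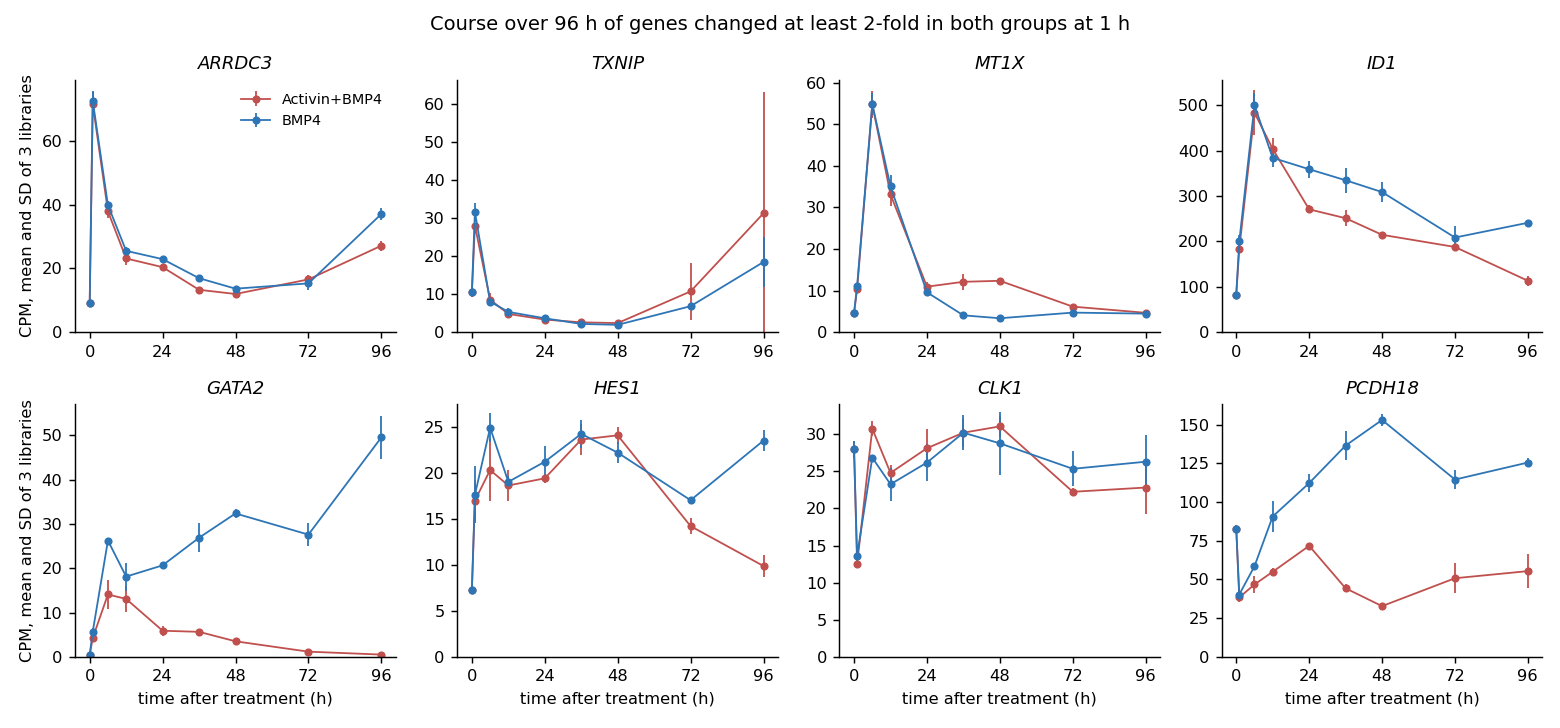
Mean CPM (SD bars, 3 libraries per point) over 96 h for 8 genes called at 1 h, with Activin+BMP4 in red and BMP4 in blue. ARRDC3 and TXNIP were highest at 1 h within the first 48 h, MT1X and ID1 at 6 h, and GATA2 and PCDH18 separated between the conditions later; the SD of TXNIP at 96 h with Activin+BMP4 (32.0) is as large as its mean (31.3).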

How the data were processed

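The authors deposited 1 table of whole-number counts per gene for 51 libraries. Per the submitters' processing notes, cutadapt 1.5, STAR 2.5.2a and RSEM 1.3.0 were used with GRCh38; their settings, the annotation and the strand setting are not given in the sources used here, so the deposited counts may be rounded RSEM estimates. Per the labels, total RNA was extracted and libraries were made with the KAPA RNA HyperPrep kit from 400 ng. Reads of repeated sequences, overlapping genes and near-identical genes may be divided or assigned to 1 of them.

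The 51 libraries were fitted together in edgeR 4.0.16 (R 4.3.3). Genes were kept by filterByExpr (minimum count 10, minimum total 15), libraries were scaled by TMM, and 1 mean was fitted per group with the quasi-likelihood test and Benjamini-Hochberg adjustment over 19603 genes. CPM values use TMM-scaled library sizes and are not divided by gene length, so levels are not compared between genes. Values in the text are group means in the order untreated, Activin+BMP4 and BMP4 unless said otherwise. The test was checked on simulated counts, with changes planted only in the more abundant genes and a common spread for all genes. That check does not cover the scarce members.

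Members and lists were chosen with earlier results of these data known. The alpha-arrestin, metallothionein, histone, SNHG and ZNF families were not among the planned lists and were added after values were seen. Nothing is read from their shares against all genes. Genes were named by rank (at least 10 CPM, no overlap of libraries, no clone or locus name), as called members of the lists, from a short panel, as nearest to the threshold or as called between the 1 h groups; some genes are not reported here, and all further named genes were chosen after their values were seen. Alternatives were DESeq2 1.42.0, other scalings and filters, a fit of the 9 libraries, a replicate block, other minimum changes and leaving out each library. Promoter windows were searched with plain text matches, and gene classes and coordinates are from GENCODE 29.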

Additional observations from a re-analysis of the deposited data

Results flagged for a closer look

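LEFTY1, the secreted NODAL antagonist, was singled out because its change at 1 h differed between the conditions in a direct test. Its mean was 7.42 ± 0.809 CPM untreated (SD, n = 3), 27.6 ± 2.07 CPM with Activin+BMP4 and 13.0 ± 0.726 CPM in the BMP4 group, and the libraries of the 3 groups did not overlap. The BMP4 minus Activin+BMP4 difference was -1.08 ± 0.13 on the log2 scale (adjusted p = 3.01e-06 by edgeR's quasi-likelihood test), and the same test called 1 gene lower without each of the 9 libraries in turn. Exons of LEFTY1 overlap those of AL117348.2, and their reads may not be separated.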

How the results depend on the processing

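The shared count was 98 higher and 6 lower with DESeq2's size factors in edgeR, 97 and 7 with no scaling, 81 and 5 with DESeq2, and 114 and 7 in a fit of the 9 libraries alone. With no filter on low counts, 85 genes were lower with Activin+BMP4, 83 with BMP4, 27 in both and 99 in the mean of both groups, and 97 were higher and 51 lower with BMP4 than with Activin+BMP4. A stricter filter tested 49 of the 98 and 4 of the 6 members, and gave 63 genes higher with Activin+BMP4, 100 higher and 12 lower with BMP4, 50 higher in both, and 86 higher and 13 lower in the mean. Between the 1 h groups, DESeq2 called 6 genes higher with BMP4, the 9-library fit 8 higher and 5 lower, and the same fit with a replicate block 12 and 5.

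With no minimum change, 569 genes were higher and 1035 lower with Activin+BMP4, 817 and 1201 with BMP4, 378 and 829 in both, 925 and 1488 in the mean, and 2 were lower between the 1 h groups. At 4-fold, these counts were 43 and 1, 59 and 6, 22 and 0, 53 and 2, and 0 lower between the 1 h groups. These follow from the threshold itself.

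Leaving out 1 library at a time gave 106 to 146 genes higher and 13 to 23 lower with Activin+BMP4, 128 to 219 and 11 to 24 with BMP4, 72 to 97 and 3 to 6 in both, and 155 to 218 and 12 to 26 in the mean. Lower genes with Activin+BMP4 numbered 13 without Activin+BMP4 1 h replicate 1. Without BMP4 1 h replicate 1 the BMP4 counts were 128 and 11, and without untreated replicates 2 and 3 the lower count with BMP4 was 14 and 15. The mean gave 12 lower genes without untreated replicate 2, and the shared lower count was 3 without untreated replicate 3. The cause of these shifts was not tested.

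Of the 98 higher genes 41, and of the 6 lower genes 3, were shared under each of the 17 alternative fits that tested them. ARRDC3, TXNIP, GADD45B, HES1, ID1, MT1X, GATA2, NOG, H4C14, CLK1 and PCDH18 were among them. Of the 13 mitochondrial genes, 9 were higher in both groups with no filter, 5 in the 9-library fit and 0 as reported. Of 1692 values of named genes under the alternatives, 26 lost a call, 9 gained one and 0 reversed, and of 1944 with a library left out, 79 lost a call, 15 gained one and 0 reversed.

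Same-numbered replicates of the 3 groups had deviations correlated at -0.051 to 0.0999, and differently numbered ones at -0.218 to 0.187. These values show no pairing by number, but with 3 libraries per group they cannot exclude shared cultures or batches. A replicate block gave 97 shared genes higher and 6 lower, 144 and 21 with Activin+BMP4, 216 and 23 with BMP4, and 205 and 21 in the mean. Depth limits the scarce members: 36 of the 98 stayed under 1 CPM.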
